A study of Homo sapiens with 4 samples.

Results

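The cohesin loops of untreated GM12878 cells were taken as the pairs of 5 kb bins listed as a loop in both vehicle libraries, DMSO and H2O, with the same chromosome and the same bins at both ends. The rule gave 12470 baseline loops, out of 27636 loops listed in at least 1 vehicle library and 41846 listed in any of the 4 libraries of the study. GM12878 is a B lymphoblastoid line made by transforming B cells with Epstein-Barr virus, and the study asked how its loops stand under replication stress. Its libraries are HiChIP of SMC1, a core subunit of cohesin. HiChIP ligates DNA ends that lie close together in fixed chromatin, then pulls down the fragments bound by a protein, so a contact count is the number of sequenced ligations joining a pair of bins. The DMSO culture received the solvent used as the control for aphidicolin (APH, 0.4 µM), a blocker of replicative DNA polymerases, and the H2O culture received water, the control for hydroxyurea (HU, 0.2 mM), which lowers the supply of deoxynucleotides. Both drugs were given for 18 h. Each treatment has 1 library, marked as replicate 1, from 1 cell line, so no difference between libraries has a replicate check and no p-value is given. The titles of the samples give a different lymphoblastoid line from GM12878, which every other label gives, and the loop lists could not settle this.

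Cohesin is a ring of SMC1, SMC3, RAD21 and a STAG subunit that is loaded onto chromatin and reels DNA through itself, which draws distant sites together. The zinc-finger protein CTCF halts cohesin in an orientation-dependent way, and in many mammalian cells loop ends carry CTCF sites that face each other. Loops bring promoters near enhancers and near other promoters, and in B cells loop extrusion also serves recombination at the antibody loci.

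DNA letters at the ends of baseline loops could be read in promoter windows, which run from 250 bases before to 50 bases after the gene starts of the RefSeq table of GRCh38.p14. The windows were searched on both strands for a short form of the CTCF motif, 12 letters long, which reads CCA, 2 free bases, AG, 2 free bases and GGC. On the other strand it reads GCC, 2 free bases, CT, 2 free bases and TGG. The letters stood in 842 of 34789 windows, or 2.42% (95% exact binomial interval 2.26 to 2.59%). They stood in 137 of 3244 windows whose start fell in a baseline anchor bin, or 4.22% (3.56 to 4.97%), and in 2.23% of the other 31545 windows (2.07 to 2.40%). The windows in anchor bins were also richer in G and C, at 62.8% against 57.0%, and the part of base composition in the difference was not tested. A match is a run of letters and not a measured binding site.

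The strand of the letters differed between left and right loop ends. A match on the plus strand points to higher coordinates, so it points into the loop from a left anchor, and a match on the minus strand points into the loop from a right anchor. Of 58 matches in bins that served only as left anchors, 44 lay on the plus strand. Of 57 matches in bins that served only as right anchors, 45 lay on the minus strand. Together 89 of 115 matches, or 77.4% (68.7 to 84.7%), pointed into the loop. The 8 other matches lay in bins that served on both sides.

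**Figure D1:**
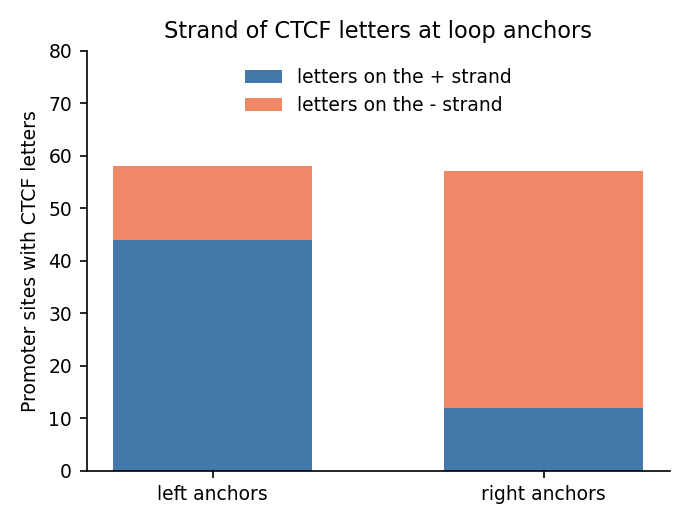
Number of promoter sites with the CTCF letters (y axis) in bins that are only left or only right anchors of baseline loops, split by the strand of the letters. The plus strand holds 44 of 58 sites at left anchors and 12 of 57 at right anchors.

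The sequences printed here carry these letters in promoters of protein-coding genes, outside annotated gene bodies, and were taken in order of the counts of their strongest loop, with the letters in capitals. Sites at starts of non-coding genes were left out, although some had loops with more counts. Each is written 5′ to 3′ in the direction of its gene, from RefSeq GRCh38.p14. The first 3 stand at left anchors and point into their loops. PRKAB2 encodes a regulatory subunit of the energy sensor AMP-activated kinase, TP73 a transcription factor of the p53 family, and EHD2 a membrane-remodelling ATPase of caveolae.
PRKAB2 (chr1:147172664-147172720, minus strand): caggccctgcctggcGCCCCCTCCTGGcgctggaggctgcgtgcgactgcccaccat
TP73 (chr1:3652266-3652325, plus strand): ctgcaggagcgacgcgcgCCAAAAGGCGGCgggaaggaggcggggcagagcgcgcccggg
EHD2 (chr19:47713282-47713353, plus strand): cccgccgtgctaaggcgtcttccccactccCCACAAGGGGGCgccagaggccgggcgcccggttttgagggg
The next 3 stand at right anchors and also point into their loops. WDR38 encodes a WD-repeat protein, AHCYL1 a partner of the inositol trisphosphate receptor, and REPS1 an endocytic adaptor.
WDR38 (chr9:124853210-124853252, plus strand): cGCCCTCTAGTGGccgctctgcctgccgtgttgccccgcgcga
AHCYL1 (chr1:109984555-109984626, plus strand): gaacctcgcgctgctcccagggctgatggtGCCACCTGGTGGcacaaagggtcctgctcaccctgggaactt
REPS1 (chr6:138988340-138988411, minus strand): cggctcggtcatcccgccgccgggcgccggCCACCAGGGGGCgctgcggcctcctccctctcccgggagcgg
The last pair shows other arrangements. The TMCC2 letters, at a left anchor, point out of their loop, and the letters before STAG1, a gene of a cohesin subunit, lie in a bin that is an anchor on both sides.
TMCC2 (chr1:205227757-205227828, plus strand): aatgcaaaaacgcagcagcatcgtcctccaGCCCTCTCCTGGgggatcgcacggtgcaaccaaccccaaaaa
STAG1 (chr3:136752379-136752448, minus strand): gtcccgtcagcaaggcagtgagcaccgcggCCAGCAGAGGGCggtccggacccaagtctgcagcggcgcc

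The loops anchored at these promoters had nearly the same counts in both vehicles. The loop from WDR38 to the body of NR6A1, an orphan nuclear receptor gene 80 kb away, held 108 counts in DMSO and 108 in H2O. The strongest loop of the AHCYL1 bin spanned 205 kb and held 87 and 100 counts. The REPS1 loop, 170 kb to ECT2L, held 76 and 85 counts. At the left anchors, the PRKAB2 loop to CHD1L held 48 and 51 counts, the loop within TP73 held 36 and 44, and the loop within EHD2 held 39 and 39. The TMCC2 loop, whose letters point outwards, held 80 and 75 counts, a sum between those of the 3 loops of the right anchors and the 3 of the left anchors. The strongest STAG1 loop, 260 kb to IL20RB, held 56 and 55 counts. On the ratio scale defined below with the comparison of the vehicles, the interval of each of these 8 loops included 1.

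Inward letters were found in baseline loops of every length. They made up 73.3% of 60 matches at loops under 100 kb (60.3 to 83.9%), 81.1% of 53 at loops of 100 to 250 kb (68.0 to 90.6%), 89.5% of 19 at loops of 250 to 500 kb (66.9 to 98.7%) and 87.5% of 8 at loops of 500 kb or more (47.3 to 99.7%). These intervals overlap, so no order by length can be read. At loops with 60 or more counts in both libraries together the share was 83.3% of 48 (69.8 to 92.5%). At loops listed in a single vehicle it was 36 of 60 in DMSO (46.5 to 72.4%) and 63 of 85 in H2O (63.5 to 83.0%). Some of these bins also anchor baseline loops. In bins of no baseline loop, 14 of 27 matches pointed inwards in DMSO (51.9%, 31.9 to 71.3%). In H2O the share in such bins was 27 of 43 (62.8%, 46.7 to 77.0%). These shares lie below the 77.4% of the baseline, although all 4 intervals overlap that of the baseline. With a fixed G after AG, a stricter form of the letters, 43 of 51 matches pointed inwards. A match at both ends was seen in 1 loop, on the plus strand at its left and on the minus strand at its right end.

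The baseline loops made up 70.6% of the 17660 loops listed in DMSO (69.9 to 71.3%) and 55.6% of the 22446 listed in H2O (54.9 to 56.2%). They held 356684 of 449565 listed counts in DMSO, or 79.3%, and 386705 of 575756 in H2O, or 67.2%. The total read depth is unknown, since only called loops are listed, and an unlisted pair is not a 0. The median baseline loop had 22 counts in DMSO (quartiles 16 and 33, highest 271) and 24 in H2O (18 and 36, highest 258). The loops listed in 1 vehicle alone were weaker, with medians of 15 counts for 5190 loops in DMSO and 16 counts for 9976 loops in H2O, close to the lowest listed count of 12. They were also shorter, at median spans of 90 and 95 kb against 115 kb in the baseline. Of these loops, 46.5% in DMSO and 40.3% in H2O had a loop in the other list within 1 bin at each end. Such a neighbour can itself be a baseline loop. With each loop used once, matching within 1 bin gave 13413 shared loops against 12470, so only part of them gained a partner of their own.

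Baseline loops had nearly the same strength in both vehicles. Across the 12470 loops the log2 counts correlated with Pearson's r of 0.890 and the counts with Spearman's rho of 0.836, which describes these libraries, because the loops share depth and bins. For ratios, each library's counts were divided by its total over the baseline loops. The log2 ratio of H2O over DMSO had an SD of 0.35 across loops, a lowest value of -1.50 and a highest value of 1.47. The 95% exact interval of the ratio excluded 1 for 262 loops, or 2.1% of all, of which 128 were higher in H2O (1.03%) and 134 lower (1.07%). This share rose with strength, from 0.309% at 24 to 39 counts in both libraries together, where the minimum of 12 limits the ratio, to 5.26% at 120 or more. A ratio past 1.5-fold was seen in 1250 loops (10%), mostly weak ones, as the share was 13.8% at 40 to 59 counts in both libraries together and 1.12% at 120 or more. These intervals cover counting error only. Of the loops whose interval excluded 1, 48.9% were higher in H2O. Scaling by all listed counts instead would lower every log2 ratio by 0.24 and leave 1.17% of such loops higher, 8 against 677. Every positive log2 ratio under 0.24 given here would then turn negative.

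**Figure D2:**
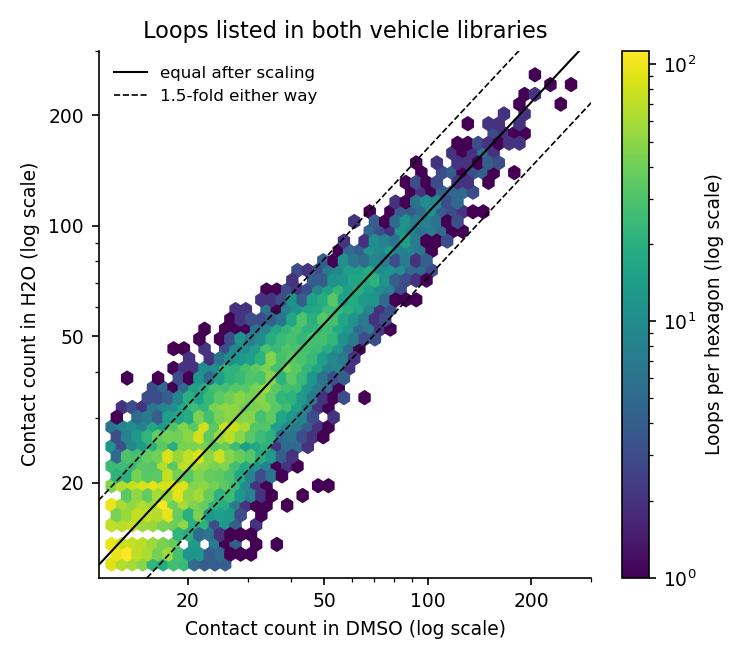
Contact counts of the 12470 baseline loops in DMSO (x axis) and H2O (y axis), both on log scales, with colour for the number of loops per hexagon. Loops follow the solid line of equal scaled counts, and 1250 of them lie outside the dashed lines of 1.5-fold.

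For strong loops listed in both vehicles, the spread between the vehicles was close to that of counting alone. The chi-square statistic per degree of freedom, which is about 1 when counts differ by sampling only, was 0.997 over 4089 baseline loops with 60 or more counts in both libraries together. It was 1.05 over the 894 loops with 120 or more. At 24 to 39 counts it was 0.478, where a loop had to reach at least 12 counts in each library to be listed in both, which narrows the spread. Over loops of 60 or more counts listed in both libraries of a pair, DMSO with APH gave 1.39 and H2O with HU gave 1.77, while APH with HU gave 1.09. A value near 1 was thus not particular to the vehicles. The pairs share libraries, so their values are not independent. Over strong loops listed in both, the 2 vehicle libraries thus differed by about the sampling noise, although the labels give them separate vehicle treatments. Loops listed in 1 vehicle alone do not enter this statistic, among them 57 in DMSO and 133 in H2O with 50 or more counts. The value therefore does not cover strong loops that were missing from 1 list.

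The 10 strongest baseline loops spanned 10 to 180 kb. The strongest by mean scaled count ran 55 kb from chr1:27605001-27610000, near the start of AHDC1, to chr1:27660001-27665000, near the interferon-induced gene IFI6. It held 271 counts in DMSO and 246 in H2O, 13.1 and 11.5 times the deposited signal taken as the expected count. Its log2 ratio was -0.26 (95% interval -0.51 to -0.0019), so of the 10 strongest loops it alone had an interval without 0. Over all baseline loops with 120 or more counts in both libraries together, that share was 5.26%. A 95 kb loop on chromosome 1 had no protein-coding gene body at either end and held 225 and 238 counts. Its left bin lay 8.77 kb from E2F2, a cell cycle transcription factor gene, and the gene nearest its right bin, RPL11, lay 51.8 kb away. A neighbouring bin pair, with a left end 7.93 kb from ID3, an inhibitor of helix-loop-helix factors, shared its right anchor and held 191 and 197 counts.

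The other strong loops lay at genes of varied function. A 180 kb loop joined RGS16, a brake on G protein signalling, to the start of NPL, with 203 counts in DMSO and 229 in H2O. A 40 kb loop with ends 9.06 and 10.2 kb from SLAMF7, a surface receptor of lymphocytes and plasma cells, held 190 and 203 counts. The loop from COXFA4L3 to SLC30A4-AS1 on chromosome 15 held 204 and 258 counts, and SLC30A4-AS1 is an antisense transcript of a zinc transporter gene. The loop from KISS1R to WDR18 on chromosome 19 held 238 and 215 counts, and the 65 kb loop within the formin gene FMNL3 held 206 and 234. The 105 kb loop at GREB1, known as an oestrogen-responsive gene, held 192 and 226 counts. A 10 kb loop at DAD1, a subunit of the oligosaccharyltransferase, held 188 and 215 counts in the vehicles and 226 in APH. That loop was not listed in HU, unlike the other 9, which were listed in all 4 libraries.

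The 3 lowest and the 3 highest single loops by ratio held 12 to 52 counts in each library. The loop from the bin beside CSF3, the gene of a granulocyte growth factor, to the thyroid hormone receptor gene THRA held 52 counts in DMSO and 20 in H2O, a log2 ratio of -1.50 (-2.32 to -0.73). A 230 kb loop at LRCH1 held 36 and 14 counts, and a 70 kb loop from SLC38A12 to GRIN2C and FDXR held 48 and 19. The loop from the cytidine deaminase gene APOBEC3C to a bin near CBX7, a Polycomb gene, held 13 and 39 counts, a log2 ratio of 1.47 (0.53 to 2.50). Loops from DGKI to CREB3L2 (18 and 46 counts) and within RASSF3 (12 and 30 counts) followed. They are the ends of a ranking of 12470 loops.

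Baseline loops were mostly shorter than 250 kb. The median span was 115 kb (quartiles 65 and 200 kb), and spans ran from 10 to 995 kb. Loops under 100 kb made up 41.6% (40.7 to 42.5%), loops of 100 to 250 kb 41.3%, loops of 250 to 500 kb 14.1% and loops of 500 kb or more 2.96%. Longer loops had fewer counts and stood higher above the expected count. In DMSO the median count fell from 26 under 100 kb to 17 at 500 kb or more, while the median ratio of observed to expected count rose from 4.42 to 10.2. In H2O that ratio rose from 4.28 to 10.9. A loop is listed only when its count is at least 12 and at least 2 times the expected one, and at long range the expected count is low, with a median of 1.70 in DMSO at 500 kb or more against 5.79 under 100 kb. The minimum of 12 by itself therefore keeps out weakly enriched long loops.

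By scaled counts, the vehicles had nearly the same span profile. Summed over loops under 100 kb, the log2 ratio of H2O over DMSO was 0.011 (0.0011 to 0.020), and over loops of 250 to 500 kb it was -0.023 (-0.042 to -0.0031). It was -0.0062 (-0.017 to 0.0043) at 100 to 250 kb and -0.0041 (-0.049 to 0.041) at 500 kb or more. The 621 loops under 30 kb, where the ratio was 0.040 (0.016 to 0.064), differed most. The median log2 ratio of loops of 500 kb or more lay 0.017 below that of loops under 100 kb, a difference of -0.017. After division by the expected counts it was 0.15, so its sign depends on that step. The median expected count under 100 kb was 5.79 in DMSO and 6.38 in H2O. At 500 kb or more it was 1.70 and 1.71.

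**Figure D3:**
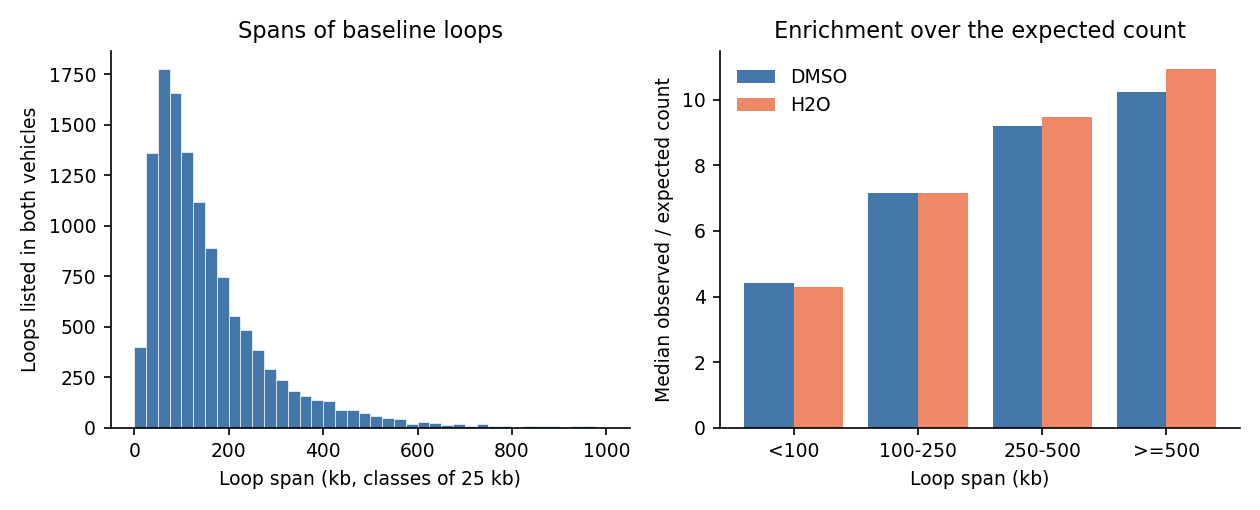
Left, number of baseline loops (y axis) by span in classes of 25 kb (x axis). Right, median ratio of observed to expected count (y axis, from 0) in 4 span classes, DMSO and H2O side by side: in DMSO it is 4.42 under 100 kb and 10.2 at 500 kb or more.

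The longest baseline loops with at least 50 counts in both libraries together kept like counts in both vehicles. A 935 kb loop on chromosome 3 from PPP2R3A to IL20RB held 33 counts in DMSO and 34 in H2O. On chromosome 22 a 910 kb loop ran from a bin near TOP3B to a bin near IGLL5, at the immunoglobulin lambda light chain locus, and held 26 and 24 counts. Loops of 875 kb joined bins near AUTS2 and GALNT17 (41 and 36 counts) and near FOXN3 and EFCAB11 (30 and 34 counts). An 850 kb loop from KIF26B to SMYD3 held 25 and 35 counts. All 5 were listed in APH and in HU too. Among loops chosen after their values were seen for a high observed-to-expected ratio, a 540 kb loop from near TPCN2 to CCND1, the cyclin D1 gene, held 85 and 103 counts, 35.2 and 43.7 times the expected count. A 730 kb loop from COL26A1 to CUX1 held 63 and 74 counts, 35.5 and 44.8 times the expected count.

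Most baseline loops were listed again in the drug libraries, and strong ones nearly always. In all, 88.2% were listed in APH and 81.4% in HU, 9529 of them in both, 2092 in 1 and 849 in neither. Of baseline loops with 12 to 15 counts in DMSO, 73.5% were listed in APH (71.7 to 75.2%) and 61.9% in HU (59.99 to 63.8%). Of loops with the same DMSO count that H2O did not list, 39.6% (37.7 to 41.5%) and 29.4% (27.7 to 31.2%) were listed. At 50 or more counts the baseline shares were 98.2% in APH and 97.3% in HU, against 45.6% and 42.1% of 57 loops that DMSO alone listed. The H2O list showed the same order, with 97.5% of 1607 baseline loops at 50 or more counts listed in APH against 45.1% of 133 loops it alone listed. With 1 bin of tolerance at each end, 71.0% of the loops listed in DMSO alone and 94.6% of the baseline loops had a match in APH. Listing depends on each library's depth, which is unknown, so these shares do not measure loss of loops under the drugs.

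**Figure D4:**
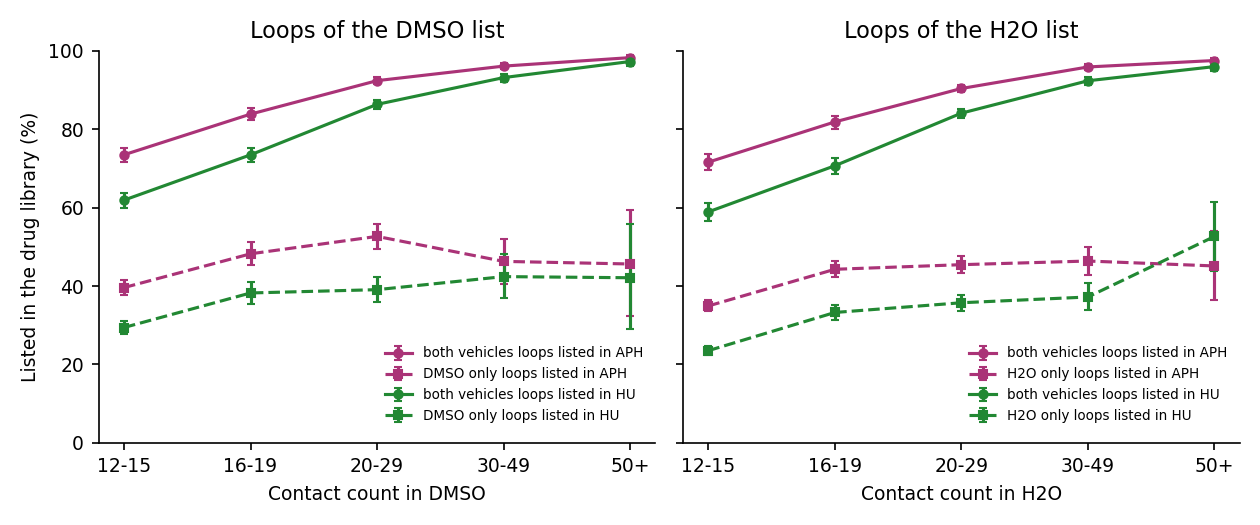
Share of loops listed in APH (purple) and HU (green), in percent (y axis), by contact count in DMSO (left) and H2O (right). Circles and solid lines are baseline loops, squares and dashed lines are loops listed in that vehicle alone, and bars are 95% exact binomial intervals: at 50 or more counts in DMSO 98.2% of baseline loops are listed in APH against 45.6% of the others.

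Baseline loops often came in groups of adjacent bin pairs. The deposited lists sort each loop into a cluster type (singleton, sharp peak or broad peak), and 81.2% of baseline loops had the same type in both vehicles. Sharp peaks in both numbered 6204, with a median span of 100 kb, and broad peaks in both numbered 1997, with 110 kb. The 1930 singletons in both were longer, at 200 kb. The same bin pair was marked as its cluster's summit in both vehicles for 5614 loops, or 45.02%.

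Most loop ends had a single partner, and ends with many partners mostly reached to 1 side. The baseline loops used 15189 bins as anchors, of which 9644 (63.5%) had 1 partner bin and 461 (3.04%) had 5 or more. Those 461 anchors took part in 2625 loops, or 21.1% of the baseline. All partners lay on the same side for 369 of them, or 80.04%, and for 4547 of 5084 anchors with 2 to 4 partners, or 89.4%. Partners in neighbouring bins count separately here, so a broad contact adds partners on 1 side. Only 629 bins were a left anchor of 1 loop and a right anchor of another. They gave 1548 chains of a pair of loops that meet in a bin, 1544 of them spanning at most 1000 kb, and in 499 chains the outer ends were themselves listed as a baseline loop.

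The 10 anchors with most partner bins had 10 to 12 each. A bin between genes on chromosome 1, nearest to the presenilin gene PSEN2, had 12 partners to its left, with 271 and 299 counts. On chromosome 16 the bin chr16:85820001-85825000, beside COX4I1, had 11 partners to its right as far as 700 kb, with 610 and 630 counts. Its partners included both bins of IRF8 nearest the gene's start, with 53 and 57 counts for one loop and 40 and 50 for the other. IRF8 is a transcription factor of B and myeloid cells.

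Other such anchors lay at the starts of PPARD, a nuclear receptor gene (11 partners, 522 and 593 counts), and of MARCKS, a substrate of protein kinase C (11 partners, 361 and 387 counts). Bins beside CD2, SSX2IP and COQ7 and a bin in TMIGD3 had 10 or 11 partners each. A bin in BTG4 on chromosome 11 had 10 partners to its left, with 436 counts in DMSO and 531 in H2O. For none of the 10 anchors with most partners did the interval of the summed ratio exclude 1, and the log2 ratios ran from -0.070 to 0.17.

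Gene bodies lay at most baseline anchors, and starts at fewer. A protein-coding gene body overlapped 60.6% of the anchor bins, and a start lay within 5 kb of 22.4%. No share over all bins of the genome stands beside these values, so they do not show whether anchors favour genes. Both anchors lay in gene bodies for 38.0% of the loops (37.1 to 38.8%), and within the same gene for 14.2% (13.6 to 14.8%). One anchor lay in a gene body for 42.9%, and neither for 19.1%. Known starts lay within 5 kb of both anchors for 6.08% of the loops and of neither for 60.3%. Starts were known for 15811 of 19970 genes, so loops with a start are undercounted and loops with none overcounted. Promoter-to-promoter loops were shorter than loops with no start, at median spans of 75 and 135 kb, and stood less far above the expected count in DMSO, at 4.68 against 6.91 times. Loops within the same gene were slightly stronger in H2O, with a log2 ratio of 0.029 (0.012 to 0.046).

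Of 19970 protein-coding genes in the table, 5474 (27.4%) had a baseline loop with an anchor on their body, 861 had 5 or more and 99 had 10 or more. Genes with a loop were longer, with a median of 47.7 kb against 24.2 kb for all genes, and a longer body covers more bins. With anchors within 5 kb of a start, 2845 of 15811 genes (18.0%) had a loop. The formin gene DIAPH1, a regulator of actin, had most, with 20 loops and 572 counts in DMSO and 605 in H2O. Its loops reached the neighbouring protocadherin gamma genes, a cluster of cell adhesion genes that share 1 stretch of chromosome 5. PCDHGA1, with 17 loops, and PCDHGA10, with 16, overlap other genes of the cluster and share loops with DIAPH1, so these counts are not independent. The phosphodiesterase gene PDE4B had 18 loops (593 and 641 counts).

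Of the 10 genes with most loops, BTG4 alone had an interval that excluded 1. Among all genes with at least 100 counts in both libraries together, genes with the same loops taken once, the share was 4.27%. BTG4 is thus no more than a single call at a setting where some are found. It had 17 loops with 694 counts in DMSO and 850 in H2O, a log2 ratio of 0.18 (0.030 to 0.32). These loops include those of the BTG4 anchor with many partners and all loops of its neighbour POU2AF1, so their counts are not independent. CIB2, a calcium-binding protein gene, had 17 loops with 660 and 641 counts, a log2 ratio of -0.16 (-0.32 to 0.00027). NANOS3, a germ cell gene, had 17 loops with 569 and 576 counts. The kinase gene PRKCE had 17 loops with 361 and 367 counts, and these were long, with a median of 285 kb. The cytokine gene IL19 had 16 loops (636 and 762 counts), and PALM2AKAP2 had 16 (617 and 687 counts).

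Over genes, few intervals of the ratio between the vehicles excluded 1. Genes with the same loops were taken as 1 place, and 2530 places had at least 100 counts in both libraries together. The interval excluded 1 for 108 places (4.27%), of which 42 were higher in H2O (1.66%) and 66 lower (2.61%). With scaling by all listed counts it would be 0 higher and 595 lower, so the direction of the calls rests on the scaling. Only 27 places (1.07%) were past 1.5-fold.

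The lowest ratio was that of SPATC1 on chromosome 8, a centriole-associated gene, with 62 counts in DMSO and 40 in H2O, a log2 ratio of -0.75 (-1.36 to -0.15). GDF5, a growth factor of joints, followed with 71 and 46 counts (-0.74). SLC38A12 with FDXR held 75 and 49 counts, DOCK6 64 and 42, and ELMOD3 65 and 43. At the other end ATG7, an enzyme of autophagy, held 39 and 70 counts, a log2 ratio of 0.73 (0.14 to 1.33). ASCC1 with ANAPC16, a subunit of the anaphase-promoting complex, held 40 and 71 counts (0.71), and the endothelin receptor gene EDNRA held 57 and 100 counts (0.69). KIZ held 43 and 72, and TOX4 with METTL3, an RNA methyltransferase gene, held 40 and 66. Each of these 10 places rests on 1 to 3 loops, and they are the ends of a ranked list.

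Loops were read at lists of genes by cell type and function. All of these lists were chosen with earlier results of these data known, so their shares are no independent check of the cell label. A loop is also not expression. Of 38 B cell identity genes, 18 (47.4%, 31.0 to 64.2%) had a baseline loop on their body, against 27.4% of all protein-coding genes. With neighbouring bin pairs merged, the shares were 36.8% and 25.8%. None of the 18 had an interval that excluded 1, where the share among all genes with a loop was 2.8%, with 1.17% higher in H2O and 1.63% lower. The median B cell gene of the list is 34.3 kb long, so length moves with this share, and its part was not tested. With anchors within 5 kb of a start the share was 9 of 27 (33.3%, 16.5 to 54.0%) against 18.0%. The surface marker genes MS4A1 (CD20) and CD79A had 4 and 2 loops. CD79B, CR2, FCER2, CD40 and IRF4 had no listed loop on their body.

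Among B cell regulators, the octamer factors and their coactivator had most counts. POU2AF1, the coactivator OCA-B, had 9 loops with 349 counts in DMSO and 430 in H2O, a log2 ratio of 0.18 (-0.023 to 0.39). All 9 ended in bins of BTG4, the strongest with 51 and 71 counts, so they are also counted among the BTG4 loops. POU2F2, encoding OCT2, had 7 loops with 266 and 307 counts, and its strongest, within the gene, held 100 and 107. IKZF3, the lymphoid zinc-finger factor Aiolos, had 6 loops with 235 and 228 counts. The Src-family kinase gene BLK had 5 loops with 199 and 231 counts. For all of these the ratio interval included 1.

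Other B cell regulators differed in the number and span of their loops. PAX5 had 1 loop, 330 kb to ZCCHC7, with 14 counts in DMSO and 13 in H2O, near the lowest listed count, and it was not listed in HU. EBF1 had 4 loops with a median span of 412.5 kb, and the strongest, 410 kb, held 42 and 44 counts. BACH2, a repressor of plasma cell fate, had 4 loops with a median of 517.5 kb and 77 and 83 counts. CIITA, the coactivator of MHC class II genes, had 7 loops with 204 counts in each library, all to bins at or beside NUBP1 and TVP23A. IRF8 had 5 loops with 210 and 220 counts, to the anchor beside COX4I1 on its left and to a bin 62.4 kb beyond its end on its right.

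None of 10 MHC class II genes had a baseline loop. They lie on chromosome 6 in a stretch from 28350001 to 33505000, 5155 kb with 174 protein-coding genes, in which none of the 4 libraries listed any anchor. The absence therefore covers the whole stretch in every library and says nothing about these genes in particular. CD74, which encodes the MHC class II invariant chain and lies on chromosome 5, had 2 loops with 68 and 67 counts.

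Genes responsive to NF-kB and to Epstein-Barr virus latency had the highest share with a loop of the 10 lists, 12 of 22 (54.5%, 32.2 to 75.6%), and 11 of 20 (55.0%) at starts. RUNX3, a transcription factor, had 12 loops with 461 counts in DMSO and 465 in H2O. TNFAIP3, the NF-kB inhibitor A20, had 11 loops with 389 and 416 counts, and its strongest reached 160 kb to the left of the gene and held 86 and 86. CCR7, a homing receptor, had 6 loops with 375 and 399 counts, of which a 35 kb loop held 142 and 169. BCL2, which blocks apoptosis, had 12 loops with 297 and 317 counts. JUNB, a subunit of AP-1, was the only member of any list whose interval excluded 1, where the share among all genes with a loop was 2.8%. It had 1 loop of 15 kb to HOOK2, with 115 and 90 counts and a log2 ratio of -0.47 (-0.88 to -0.060). TRAF1, NFKBIA, BIRC3, CD83 and EBI3 were among the 10 without a loop.

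Lists of other cell types also had genes with loops, at shares whose intervals hold the 27.4% of all genes. They were 8 of 25 T cell genes (32.0%, 14.9 to 53.5%), 5 of 23 myeloid and erythroid genes (21.7%, 7.46 to 43.7%), 4 of 20 liver genes and 4 of 20 neuron genes (interval 5.73 to 43.7% for each). The B cell interval overlaps each of these. With anchors within 5 kb of gene ends, the shares were 42.1% for B cell, 36% for T cell and 34.8% for myeloid and erythroid genes. They were 25% for liver genes, 15% for neuron genes and 25.6% for all genes. The gap between B cell genes and the other blood lists was thus narrower by that assignment. TCF7, a T cell factor, had 9 loops (221 and 245 counts). CD3G, a chain of the T cell receptor complex, had 3 (101 and 113), and the factor gene TBX21 had 2 (77 and 85). CD3E, CD3D, CD8A, CD28, GATA3 and BCL11B, which define T cells, had none on their body. SPI1, the factor PU.1, which B cells share with myeloid cells, had 4 loops with 244 and 266 counts, and a 35 kb loop to SLC39A13 held 142 and 161. The red cell genes EPOR and KLF1 had 3 loops (65 and 66 counts) and 1 loop (29 and 19), and the neutrophil gene S100A8 had 1 (14 and 15). CD14, CD33, ELANE, GATA1 and HBB had none.

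Some genes of unrelated tissues had summed counts in the range of the B cell genes. TAT, a tyrosine-degrading enzyme of liver, had 2 loops with 113 and 131 counts. SLC17A7, a glutamate transporter of neurons, had 5 loops with 214 and 233 counts. The liver factor gene HNF4A had 4 loops (88 and 92 counts), and the synaptic kinase gene CAMK2A had 2 (46 and 60). A listed loop on a body therefore did not mark a gene as one of this cell type, and ALB, APOA1, SYN1, SNAP25 and NEUROD1 had none.

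Of the genes of cohesin, its regulators and CTCF, 8 of 18 (44.4%, 21.5 to 69.2%) had a loop. CDCA5, encoding sororin, which keeps cohesin on sister chromatids, had 6 loops with 110 and 124 counts. STAG1 had 3 loops with 94 and 82 counts. The genes of the cohesin-release partners, PDS5A and PDS5B, had 3 each, with 57 and 42 and with 52 and 60 counts. The loader gene NIPBL had 2, and SMC3, RAD21 and STAG2 had 1 each. SMC1A, which encodes the protein precipitated here, WAPL and CTCF had none.

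HOX genes, the position-coding factors of development, had a loop for 12 of 39 (30.8%, 17.02 to 47.6%), with 9 loops at HOXB3 (187 and 214 counts) and 6 shared by HOXC4, HOXC5 and HOXC6 (148 and 171). HOXA13 was the only gene of the HOXA cluster with a loop. Ribosomal protein genes, which are short and highly active, had 6 of 34 (17.6%, 6.76 to 34.5%) on their body and 8 of 25 (32.0%, 14.9 to 53.5%) at starts. Their order against all genes thus turned with the assignment. RPL10A had 2 loops with 106 and 109 counts, one of them to the PPARD anchor with many partners (82 and 85). RPL4, RPS19 and RPL3 had 2 loops each, with 43 and 52, 42 and 51, and 46 and 36 counts.

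Baseline loops were densest on gene-rich chromosomes. They ran from 1.03 per Mb on chromosome X to 11.1 per Mb on chromosome 19. Across 23 chromosomes the density followed that of protein-coding genes with Spearman's rho of 0.893. Chromosome X was an exception, since it had the lowest loop density but 5.44 protein-coding genes per Mb. Chromosome 13, with 2.96 genes per Mb, had 1.92 loops per Mb. The cause of the low value on chromosome X was not tested. The median span ran from 75 kb on chromosome 19 to 180 kb on chromosome 18. Per chromosome, the summed ratio of H2O over DMSO differed little. The log2 ratio was 0.086 on chromosome 21 (0.012 to 0.16), 0.057 on chromosome 4 (0.019 to 0.095) and -0.042 on chromosome 19 (-0.070 to -0.015), and the other 20 intervals included 0. The ratio was lower where genes were denser, with rho of -0.789 and r of -0.591 over the 23 chromosomes. These points share the same pair of libraries, and with 1 library a vehicle the treatment and the library cannot be told apart.

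**Figure D5:**
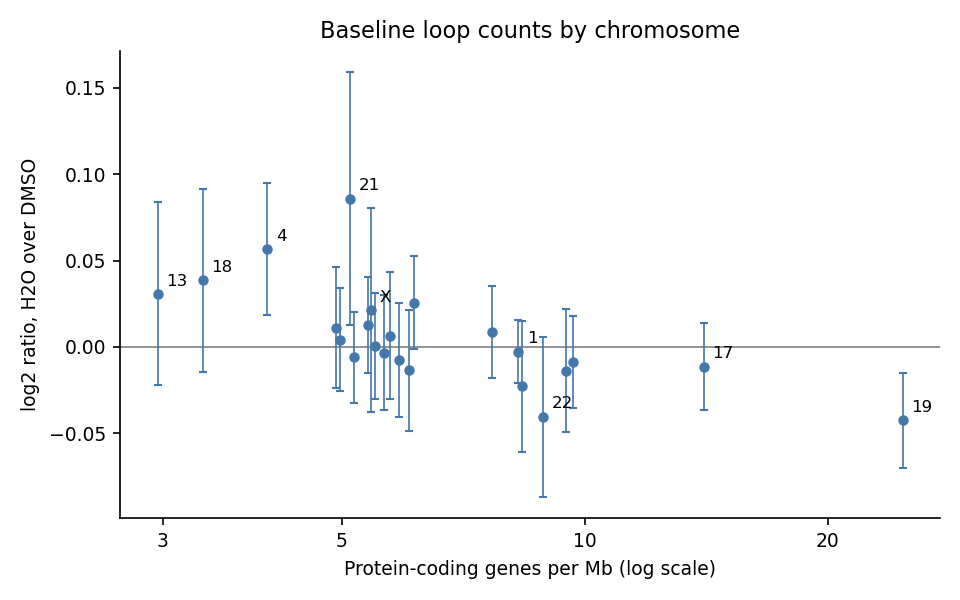
Log2 ratio of summed baseline counts, H2O over DMSO (y axis), against protein-coding genes per Mb (x axis, log scale) for 23 chromosomes, with 95% exact intervals as bars and some chromosomes named. Chromosome 19 lies lowest at -0.042 and chromosome 21 highest at 0.086.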

How the data were processed

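SMC1 HiChIP loop lists of 4 libraries of GM12878 were used, 1 library for each treatment. Per the submitters' processing notes, bcl2fastq 2.17 and MACS3 3.0.1 were used and the build was hg38. For the aligner and the loop caller, the entry is: not given in the sources used here. Lists came without a header, 1 per library, and column meanings were taken from the values. Contacts per pair of 5 kb bins are deposited as raw counts, with 12 as the lowest. The observed count is at least 2 times the deposited signal taken as the expected count. The deposited p-value column, taken as a false discovery rate, lies below 0.01. Deposited cluster types, cluster sizes and summit marks were used as labels.

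Ratios used counts divided by each library's total over the baseline loops, with no pseudocount, 95% exact conditional binomial intervals for ratios and Clopper-Pearson intervals for shares. They cover counting error only, and HiChIP reads carry no molecular identifiers, so they are not independent. A ratio past 1.5-fold, or an interval without 1, was counted. Python 3.11.15, numpy 2.4.6, pandas 2.3.3, scipy 1.17.1 and matplotlib 3.10.9 were used, and the intervals were tested on simulated data.

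Genes and promoter windows came from RefSeq tables of GRCh38.p14 (19970 protein-coding genes on chromosomes 1 to 22 and X, 15811 with a start in the promoter table, which is not complete). Loops were given to a gene by an anchor bin over its body, with gene ends and starts within 5 kb as alternatives. The members and gene lists were chosen with earlier results of these data known. The named items are the 10 strongest loops, the 10 anchors with most partner bins, the 10 genes with most loops, the 4 members of each list with most counts, the 5 highest and 5 lowest genes (with 100 or more counts, 1 place for genes sharing all loops), the 3 highest and lowest loops, and the 5 longest loops with 50 or more counts. Other names, and the results on CTCF letters, the drug lists, the spread over counting error, chromosomes and partner sides, were chosen after values were seen. A few items that these rules name are not reported here.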

Additional observations from a re-analysis of the deposited data

How the results depend on the processing

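No paired analysis was possible because each treatment has 1 library and all carry the same replicate number. With at least 24 counts in both libraries, the baseline held 5062 loops with a median span of 90 kb, 53.8% under 100 kb, 2.77% with an interval without 1, 4.23% past 1.5-fold, and 3199 genes with a loop. With anchors matched 1 bin apart, 43.0% lay under 100 kb and 9.45% were past 1.5-fold. With neighbouring bin pairs merged, 7892 loops remained, with a median of 125 kb, 39.1% under 100 kb and 2.43% with an interval without 1, and 3.43% of gene places had one. With scaling by all listed loops, 5.49% of loops and 23.5% of gene places had an interval without 1 and 16.8% of loops were past 1.5-fold. This scaling divides H2O by a total that holds more loops listed in H2O alone. Division by the expected count gave 0.15 for long minus short loops, against -0.017. The median expected counts of the vehicles differed more under 100 kb than at 500 kb or more, and the cause was not tested. Loops assigned to starts gave 2845 genes. Of the planned results, 22 other values moved little. Of alternatives chosen after seeing the data, 16 values moved little and 13 moved more. Of the latter, anchors with 5 or more partners lay on 1 side in 70.5% at 24 counts and 66.7% after merging, against 80.04%. The lists hold called loops only, so depth limits every loop near 12 counts.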
